A study of Mus musculus with 12 samples.

Results

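The change in 5-methylcytosine (5mC) from differentiative progenitors (DP) to neurons was described at all 55085 peaks of the 5mC table, out of 102563 peaks in the 5mC and 5-hydroxymethylcytosine (5hmC) tables together. Cells came from the cortex of mouse embryos at E14.5 that were double heterozygous for a Btg2-RFP and a Tubb3-GFP reporter. DP were sorted as Btg2+/Tubb3- cells and neurons as Tubb3+ cells, whatever their RFP, so that the neuron fraction held every cell with an active Tubb3 reporter. The third fraction, proliferative progenitors (PP, negative for both reporters), was used only for comparison. The DP and neuron comparison rested on 4 of the 12 deposited samples, an immunoprecipitate and an input of each cell type. Each peak had 1 deposited level per cell type on a log2 scale, a mean that the authors made over their replicates, so no peak was tested here and no error is given. A change is the neuron level minus the DP level, less the median of that difference over all peaks, which was -0.18 before centring. A peak was counted as loss or gain when its centred change was at least 1.5-fold (0.58 on the log2 scale).

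Methylation of cytosines in CpG pairs is written by the DNMT enzymes and copied to the new strand after replication. TET enzymes oxidise 5mC to 5hmC, which can be removed by base excision repair or diluted by cell division. In the embryonic cortex, DP divide to give neurons that then leave the cell cycle, and many neuronal genes are switched on over this step. Immunoprecipitation with an antibody against 5mC (MeDIP) enriches fragments by how many methylated cytosines they carry, so that a level is a relative quantity that also depends on CpG density, not a percentage of methylated molecules.

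The expression values deposited beside each peak come from an earlier RNA-seq study of the same 3 cell types, so they describe those cell types and do not check the sorted fractions used for MeDIP. Btg2 read 38556 in DP and 7484 in neurons, and Eomes, the transcription factor of intermediate progenitors, read 50497 and 3626. Tubb3, the neuronal tubulin, read 25259 in DP and 105657 in neurons. All 5 DP markers were lower in neurons and the 5 of 7 neuron markers that are listed beside a peak were all higher. Among 11 of 15 markers of other cell types that are listed, none read 0 in either cell type. Their summed value was 3146 in DP and 5535 in neurons, of which Gad1, the GABA-synthesising enzyme of interneurons, made 3055 in neurons against 41.9 in DP.

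The peaks that lie on known start sites are shown with their sequence, because there their CpG pairs can be placed beside a gene's start. A level does not show which of these pairs are methylated, and levels given for a stretch below are those of its whole peak. A peak overlapped a RefSeq promoter window (250 bases before to 50 after a start, GRCm38.p6, the same build as mm10) by at least 50 bases in 272 cases. Among these, the 3 largest falls and the 2 largest rises at the gene's own window are given with the most highly methylated peak in DP that changed by less than 0.1. Only the stretch shared by the peak and the window is printed, 5′ to 3′ on the gene's strand, with CpG pairs in capitals.
Rph3a: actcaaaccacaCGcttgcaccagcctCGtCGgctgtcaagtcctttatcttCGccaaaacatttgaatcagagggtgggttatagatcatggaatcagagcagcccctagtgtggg
Cabp1: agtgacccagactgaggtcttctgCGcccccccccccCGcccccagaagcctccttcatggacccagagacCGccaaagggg
Il16: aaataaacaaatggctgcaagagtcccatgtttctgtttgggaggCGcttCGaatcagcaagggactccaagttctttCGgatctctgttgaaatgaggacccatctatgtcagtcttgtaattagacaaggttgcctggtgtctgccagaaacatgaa
Rab3il1: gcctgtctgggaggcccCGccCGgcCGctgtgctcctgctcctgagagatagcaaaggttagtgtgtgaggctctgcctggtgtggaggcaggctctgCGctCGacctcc
Tmsb4x: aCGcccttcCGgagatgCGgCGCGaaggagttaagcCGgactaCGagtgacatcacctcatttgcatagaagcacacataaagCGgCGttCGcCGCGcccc
Acacb: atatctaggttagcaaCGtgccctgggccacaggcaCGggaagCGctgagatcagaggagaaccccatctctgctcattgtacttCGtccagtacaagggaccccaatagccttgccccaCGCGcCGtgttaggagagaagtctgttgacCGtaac

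The largest fall on a gene's own start was at Rph3a, which encodes rabphilin, a protein of synaptic vesicles. The peak (chr5:121010141-121010257, minus strand) lay wholly inside the window, from 165 to 49 bases before the start, and held 4 CpG pairs. Among the 6 peaks listed next to Rph3a this was the only loss. Its 5mC level stood at 5.63 in PP and 5.66 in DP but at 2.58 in neurons, a centred change of -2.91, while the expression value of Rph3a went from 14.6 in DP to 2340 in neurons. The level thus stood about equally high in both progenitor types and was low in neurons. Next to Rph3a 2 peaks were gains, 10.6 kb inside the gene (4.11 in DP and 4.67 in neurons) and 17.0 kb upstream (4.36 and 4.91). At Cabp1, a neuronal calcium-binding protein, the shared stretch (chr5:115186072-115186153, minus strand, 3 CpG pairs) ran across the start. Its level fell in steps from 4.16 in PP to 3.0 in DP and to 0.11, the lowest level listed for neurons, and the expression value rose from 775 to 4562. The stretch at Il16 (chr7:83732490-83732648, minus strand, 3 CpG pairs), a cytokine gene, had levels of 4.37, 4.80 and 3.27 and expression values of 5.4 and 22.2. The start annotation of the deposited table differs from these windows and places the Rph3a peak 0.681 kb upstream of the gene, and the Cabp1 peak 8.29 kb and the Il16 peak 13.1 kb inside it.

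Rises at start sites were smaller. At Rab3il1, an exchange factor for vesicle Rab proteins, the stretch (chr19:10014987-10015096, plus strand, 5 CpG pairs) went from 3.91 in PP and 3.97 in DP to 4.87 in neurons. At Tmsb4x, the X-linked gene of the actin-binding thymosin beta 4, the stretch (chrX:167209169-167209269, minus strand) held 12 CpG pairs in 101 bases and its level was 3.86, 3.96 and 4.72. The expression values of both genes were higher in neurons, 212 against 469 for Rab3il1 and 20230 against 58957 for Tmsb4x, so the 2 largest rises at a gene's own start did not stand beside lower expression. At Acacb (chr5:114165328-114165483, plus strand, 8 CpG pairs), a fatty acid synthesis enzyme, the level was 7.54, 7.67 and 7.48 and the expression value went from 108 to 28.8. The deposited table places the Rab3il1 and Acacb peaks 13.4 and 18.9 kb inside the gene. Over the 272 cases, the shared stretch had a median of 4.01 CpG pairs per 100 bases at 26 loss peaks and 4.55 at 15 gain peaks. It was 3.80 at 231 other peaks, and 3.74 at the 9 gain peaks on autosomes. Over all 32851 windows the median was 2.33. That value is for whole windows of 300 bases, most of them without a peak, so it is not a like measure. Of the 15 gain peaks, 6 lay on the X chromosome, with a median of 8.09 CpG pairs per 100 bases. None of the 26 loss peaks did, beside 17 of the 231 other peaks and 23 of all 272. At that share few loss peaks would lie on the X in any case.

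Across the whole table, more peaks lost than gained 5mC on the way to neurons. Loss of at least 1.5-fold was found at 5157 peaks (9.36%) next to 3540 genes, and gain at 2821 peaks (5.12%) next to 2431 genes. At 2-fold the counts were 1818 (3.30%) and 388 (0.704%), and past 4-fold 332 and 6. The balance depended on the centring: losses made up 64.6% of the calls here, 87.3% with no centring, and 55.5% when the median was taken within each of 10 groups of level. Measured in the same way, the step from PP to DP, which shares its DP levels with this comparison, had 2994 losses (5.44%) and 2535 gains (4.60%), and PP to neurons had 5643 losses (10.2%) and 2755 gains (5.00%). Losses of at least 2-fold numbered 529 from PP to DP.

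Loss and gain peaks had different median levels. At loss peaks the median level went from 4.65 in PP and 4.78 in DP to 3.69 in neurons. At gain peaks it dipped from 4.57 in PP to 4.15 in DP and stood at 4.75 in neurons, so that the median gain peak was lower in DP than in either PP or neurons. The other 47107 peaks had medians of 5.15, 5.16 and 4.99. Selection for a change between DP and neurons itself favours low and high DP levels, and these medians are a description only.

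Changes were concentrated at peaks of low level. In the lowest of 10 equal groups of the mean of DP and neurons, 35.5% of peaks were losses and 11.2% gains, against 0.89% and 0.25% in the highest. Grouping by the level in PP, which takes no part in the change, gave 19.3% losses and 11.4% gains in the lowest group and 2.76% and 0.22% in the highest. Loss was more frequent than gain in each of the 10 groups by PP level. The SD of the change over peaks was 0.90 in the lowest and 0.21 in the highest group of the mean level, and therefore the share of losses that all peaks of the same PP levels had is given below beside the lists and main groups, as the level-matched share.

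**Figure D1:**
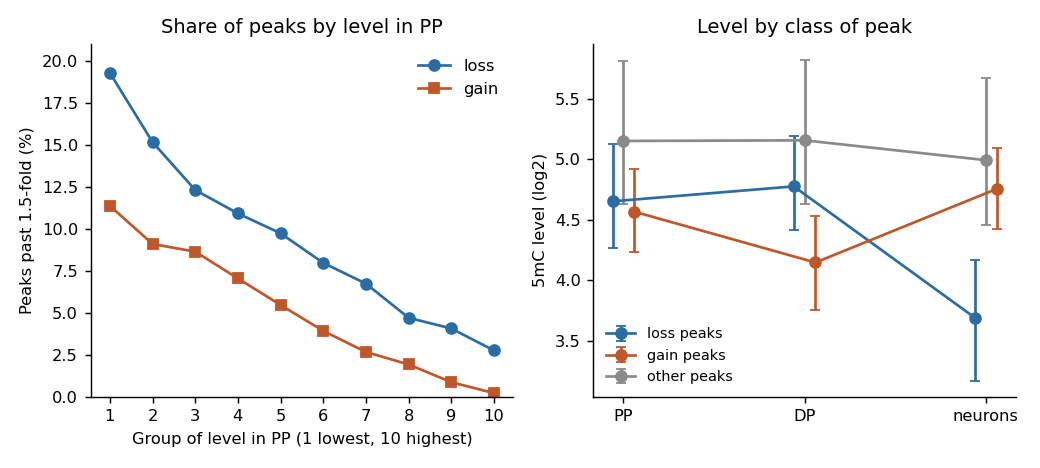
Left, the percentage of peaks with loss (circles) or gain (squares) of at least 1.5-fold in 10 equal groups of the level in PP. Right, the median log2 level in PP, DP and neurons for 5157 loss, 2821 gain and 47107 other peaks, with bars from the lower to the upper quartile over peaks: loss peaks fall from 4.78 to 3.69 between DP and neurons, and gain peaks dip in DP to 4.15.

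The 10 largest falls were taken among the 30694 peaks whose higher level in DP or neurons was at least 5. The deepest peak (chr5:110981104-110981229) is listed 23.0 kb upstream of Mir701 and lies within the RefSeq gene Ttc28. Its level went from 6.42 in PP and 5.71 in DP to 0.11 in neurons. The peak 1.46 kb upstream of Syt3 (chr7:44382544-44382750), a synaptotagmin of the vesicle release machinery, read 6.32, 5.70 and 0.11. Both sit at the lowest level listed for neurons, which 38 peaks share, so the size of their falls (43-fold and 42.5-fold) is set by that lowest value. Expression of Syt3 went from 235 to 2050.

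The other 8 had levels of 1.44 to 1.94 in neurons. Inside Atrnl1, an attractin-like membrane protein, 15.1 kb from the start, the level went from 5.20 in DP to 1.45 in neurons, and expression from 3122 to 10302. Upstream of Tiam2 by 72.5 kb, it went from 5.37 to 1.65. Tiam2 activates the small GTPase Rac in growing neurites, and its expression value rose from 6081 to 41126. Upstream of Gprin1, a regulator of neurite outgrowth, by 6.36 kb, the level fell from 5.20 to 1.49 with expression from 2099 to 13685. Inside Cacna1c, the pore-forming subunit of an L-type calcium channel, it went from 5.30 to 1.64 with expression from 968 to 6194. The peak nearest to Agpat4 lies 140 kb away and went from 5.76 to 1.44. Expression did not rise at every gene: at Itga9, an integrin subunit, and Fras1, an extracellular matrix protein, the falls to 1.94 and 1.86 stood beside lower expression in neurons (252 to 61.3 and 3522 to 2101), and the peak nearest to Gm17116 lies within Msra. Of the 9 genes listed as nearest with an expression value of at least 50 in DP or neurons, 5 were at least 2-fold higher in neurons and 1 at least 2-fold lower. Only 1 of the 10 peaks lay within 5 kb of the listed start, and 8 were higher in PP than in DP.

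The 10 largest rises were smaller than the 10 largest falls. The largest, inside 2310003H01Rik (chr11:120374083-120374231), went from 3.93 in PP to 3.20 in DP and 5.02 in neurons, a 3.99-fold rise. Of the 10 peaks, 9 were higher in PP than in DP, a count near the 8 of the falls, and choosing peaks by their rise itself favours low DP levels. Their median level fell from 4.79 in PP to 3.85 in DP and reached 5.12 in neurons. Nuf2, a kinetochore subunit needed in mitosis, had a peak 9.35 kb inside the gene that went from 3.82 to 5.13 while expression fell from 2734 to 159. Mybpc1, a myosin-binding protein, had an inside peak that went from 4.44 to 5.73 with expression from 452 to 1.2. At Gm16013 the level went from 3.83 to 5.05 and expression from 41 to 0.6. Of the 7 nearest genes with an expression value of at least 50, none was at least 2-fold higher in neurons and 2, Nuf2 and Mybpc1, were at least 2-fold lower. The remaining 7 peaks (next to Nap1l4, Gatsl3, Gm12791, Arhgap12, Tbx15, Rpap3 and the largest) stood beside expression values that differed by less than 2-fold.

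Losses were spread over many genes, and few genes lost 5mC at most of their peaks. Of 3835 genes with at least 5 peaks, 44 had losses at 50% or more of them and 4 had gains at that share, and 1292 had neither a loss nor a gain. The lowest median changes belonged to Spon1 (-0.94 over 6 peaks), Tiam2 (-0.92 over 14), Gm16518 (-0.88 over 5), Trim2 (-0.83 over 6), Cxcr7 (-0.80 over 15), E2f6 (-0.76 over 5), 4933437N03Rik (-0.73 over 5), Tcf4 (-0.72 over 10), Enc1 (-0.71 over 5) and Cdh13 (-0.70 over 6). Of the 8 among them with an expression value of at least 50, 4 were at least 2-fold higher in neurons. The highest medians belonged to Mettl14 (0.67), Tinagl1 (0.60), Fam59a (0.60) and Batf3 (0.58), each over 5 peaks.

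At Tiam2 all 14 peaks were below 0, with 8 losses. They lay both outside and inside the gene: 5 neighbouring loss peaks spanned 48.5 kb upstream of the gene (chr17:3234143-3282692), where the median level was 4.76 in DP and 3.02 in neurons, and inside the gene, at 12.3 and 23.6 kb from the start, the levels went from 3.45 to 1.51 and from 3.55 to 1.82. The 2 inside peaks furthest from the start, at 94.9 and 102 kb, changed by only -0.50 and -0.47. At Bcl11b, the transcription factor of deep-layer projection neurons also called Ctip2, 8 of 21 peaks were losses, and all 8 lay inside the gene, between 7.99 and 77.3 kb from the start. The lowest of them, 8.49 kb from the start, went from 4.65 in PP and 4.33 in DP to 2.13 in neurons. The 9 peaks upstream of Bcl11b changed by -0.41 to 0.25. Its expression value went from 6361 to 51072.

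Cxcr7 (also called Ackr3), a scavenging receptor for the chemokine Cxcl12, had 8 losses in 15 peaks. Its lowest peaks, 179 and 187 kb downstream of the start and outside the gene, went from 5.05 to 1.88 and from 4.96 to 2.45, while the peak at 175 kb, between losses at 152 and 179 kb, changed by -0.19. Loss and stable peaks thus alternated along this locus. Tcf4, the dimerisation partner of the neurogenic bHLH factors, had 6 losses in 10 peaks. The peak 102 kb inside the gene went from 4.96 to 3.03, and those 36.2 and 36.7 kb inside from 4.33 to 2.78 and from 4.25 to 2.98, while expression was 66998 in DP and 59100 in neurons. At Spon1, an adhesion protein of axon pathways, 4 of 6 peaks were losses and 1, at 139 kb inside the gene, rose from 2.98 to 3.92. Cdh13, a cadherin without a cytoplasmic part, kept a level of 8.06 in neurons at a peak 74.3 kb upstream and went from 4.45 to 1.85 at a peak 55.6 kb inside the gene, with expression from 164 to 11418.

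By number, the most loss peaks were listed next to 7SK (21 of 143) and U6 (12 of 150), which are names shared by many small RNA loci and not single genes. They were followed by 4933415D12Rik (12 of 28), Rbfox1 (9 of 29), Bcl11b, Cxcr7 and Tiam2 (8 each). Rbfox1, a splicing regulator of neurons, had a median change of -0.23, a lowest change of -2.96 and 1 gain, and its expression value went from 379 to 6776.

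**Figure D2:**
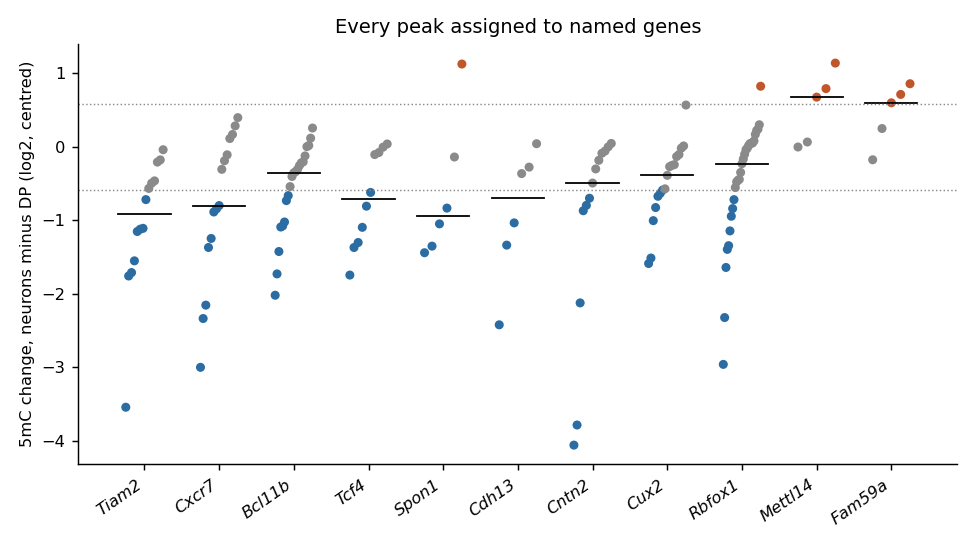
Centred log2 change in 5mC from DP to neurons for every peak assigned to 11 named genes, 1 point a peak, with the gene's median as a bar and dotted lines at 1.5-fold. Tiam2 has no point above 0, Bcl11b and Cxcr7 mix loss peaks with stable ones, Cntn2 has its lowest point at -4.06, and Mettl14 and Fam59a have their medians at 0.67 and 0.60.

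Gene lists were compared with the table as a whole, where the shares were 9.36% loss and 5.12% gain. The list of neurogenic bHLH factors and their partners had 13 losses and 1 gain in 32 peaks next to 9 of 16 members (40.6% and 3.13%), with a level-matched share of 11.2%. The proneural and neuronal differentiation factors of the list, which drive progenitors towards the neuronal fate, made up 5 losses in 12 peaks. The E proteins Tcf3, Tcf4 and Tcf12, partners expressed in many cell types, made up 6 in 15, all at Tcf4, and Bhlhe41, a repressor, 2 in 5. Without Tcf4 the share of the list was 31.8% of 22 peaks. At Neurod2, a factor of differentiating projection neurons, the only peak (chr11:98333211-98333393, 3.65 kb upstream) went from 5.91 in PP and 4.92 in DP to 2.50 in neurons, and expression from 14645 to 44141. Nhlh2 had 2 losses in 5 peaks, Bhlhe41 had 2 in 5 and Neurod6 had 1 in 3. Neurod6 also held the gain, from 3.56 to 4.22 at 68.9 kb upstream, and Nhlh1, Tcf3 and Tcf12 had neither a loss nor a gain. Expression of the members did not move one way: Neurod6 went from 14944 to 45981 and Tcf3 from 18262 to 7196.

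Projection neuron identity factors had 31 losses and 7 gains in 136 peaks (22.8% and 5.15%) next to 20 of 30 members, and the level-matched share was 8.87%. Tbr1, a factor of deep-layer neurons, had a fall from 4.74 to 2.28 at 64.7 kb downstream of its start, beside expression of 6348 and 39085. Cux2, of upper-layer neurons, had 7 losses in 17 peaks and a median of -0.39. The 3 peaks listed next to Sox5 went the other way, with a median of 0.39 and 1 gain, though its expression rose from 5978 to 41786. These peaks reach no further than 13.4 kb inside the gene and do not stand for the whole locus. Further downstream on the same chromosome, 28 peaks are listed next to 4933415D12Rik, with 12 losses and no gain. Whether those peaks lie within Sox5 was not examined. Interneuron markers had 14 losses in 58 peaks (24.1%, level-matched 10.4%), but 8 of them were at Cxcr7 and the share without it was 14%. Expression values of Gad1 differ between the cell types in the earlier study, as given above, and the part of interneurons in these shares was not tested.

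Lists of genes of the growing axon and of excitability also had more losses than the whole table. Axon guidance ligands and receptors had 53 losses and 12 gains in 303 peaks (17.5% and 3.96%, level-matched loss 9.89%), with losses next to 25 of the 48 members that had a peak. Cntn2 (TAG-1), an adhesion molecule of growing axons, had 6 losses in 13 peaks. At 26.9 and 48.7 kb upstream its levels went from 4.07 and 4.35 in DP to the lowest listed value of 0.11 in neurons, and expression from 9931 to 226628. Robo2, a Slit receptor, had 1 loss in 2 peaks, and Slit3, a ligand, had a median of 0.23 and 1 gain in 5. Ion channels and neurotransmitter receptors had 43 losses and 15 gains in 291 peaks (14.8% and 5.15%, level-matched loss 9.95%). Scn2a1, a sodium channel, had 2 losses in 3 peaks with expression from 78.5 to 2161. Gria4, a glutamate receptor subunit, had 2 gains in 3 peaks although its expression rose from 369 to 2524.

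Synapse and vesicle genes had 15 losses and 4 gains in 120 peaks (12.5% and 3.33%, level-matched loss 9.68%). Without Nrxn2, which held 3 losses, the loss share was 10.3% of 117 peaks, near the level-matched share. All 3 peaks of Nrxn2, a presynaptic adhesion molecule, were losses inside the gene: at 4.75 kb from the start the level went from 4.62 to 1.38, at 24.0 kb from 4.53 to 3.34 and at 24.4 kb from 3.92 to 1.40, while expression went from 1901 to 16190. Syt2, another synaptotagmin, had 2 gains in 3 peaks and a median of 0.73. Neuronal cytoskeleton genes had 20 losses and 3 gains in 154 peaks (13% and 1.95%, level-matched loss 8.85%). Without Ank3, which held 6 losses, the loss share was 11.3%. Among the 84 of these peaks with PP levels at or above the median, 4.76% were losses, against 5.25% of all such peaks. Cdk5r1, the p35 activator of the kinase Cdk5, had 3 losses in 6 peaks, with a level from 4.72 to 2.82 at 1.61 kb inside the gene, and expression from 6059 to 34896. Tuba1a, a tubulin, had a median of -0.44 over 2 peaks and no loss, and Nefl, a neurofilament, a median of 0.23 over 4. Cadherins and planar polarity genes had 24 losses and 8 gains in 200 peaks (12% and 4.00%, level-matched loss 9.19%), with Pcdh9 at a median of -0.52 and Pcdh10 at 0.24. Notch and Wnt pathway genes had 32 losses and 14 gains in 247 (13% and 5.67%, level-matched loss 9.90%).

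Loss was not limited to genes that rise. Intermediate progenitor genes, with a median expression value of 12034 in DP and 4674 in neurons, had 8 losses and 2 gains in 48 peaks (16.7% and 4.17%, level-matched loss 9.72%), with Eomes at a median of -0.43 over 3 peaks beside expression of 50497 and 3626. Progenitor and radial glia genes had 15 losses and 4 gains in 115 (13% and 3.48%, level-matched loss 9.99%), and 9.89% without Sox2, which held 6. Emx1, a homeobox factor of the cortex, had 1 loss in 2 peaks, from 4.43 to 1.28 at 32.7 kb downstream, and that peak had read 5.77 in PP. Fgfr3 had 1 loss in 5 peaks with a median of -0.53. Cell cycle and replication genes had fewer losses than the whole table, 12 in 167 peaks (7.19%, level-matched 9.95%), and 7 gains (4.19%), with Mcm5, a replication helicase subunit, at 2 gains in 3 peaks and expression from 8721 to 771.

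The writers and erasers of the mark had 7 losses and 2 gains in 61 peaks (11.5% and 3.28%, level-matched loss 10.3%). Dnmt1, the maintenance enzyme, had 2 peaks that changed by 0.44 and 0.14, and Dnmt3a, a de novo enzyme, 2 that changed by 0.54 and 0.27. Expression of both was lower in neurons, 17127 to 9774 and 10166 to 5085. Tet2 had 1 loss in 4 peaks, from 4.98 to 3.85 at 37.7 kb inside the gene, and Tet3 none in 2, with expression of 7353 and 7772 for Tet2 and of 18896 and 19753 for Tet3. A list of 15 loci picked from the study's text and from earlier results of these data, with common control genes, had 21 losses in 96 peaks (21.9%, level-matched 8.94%). That list was partly chosen on these samples and its share is not independent evidence. In the same list the peaks near the housekeeping genes Actb and Gapdh (2 each) changed by -0.17 to -0.01. The 3 peaks near Eef1a1, also in this list, changed more, by 0.43, 0.37 and -0.44, short of a gain or loss.

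**Figure D3:**
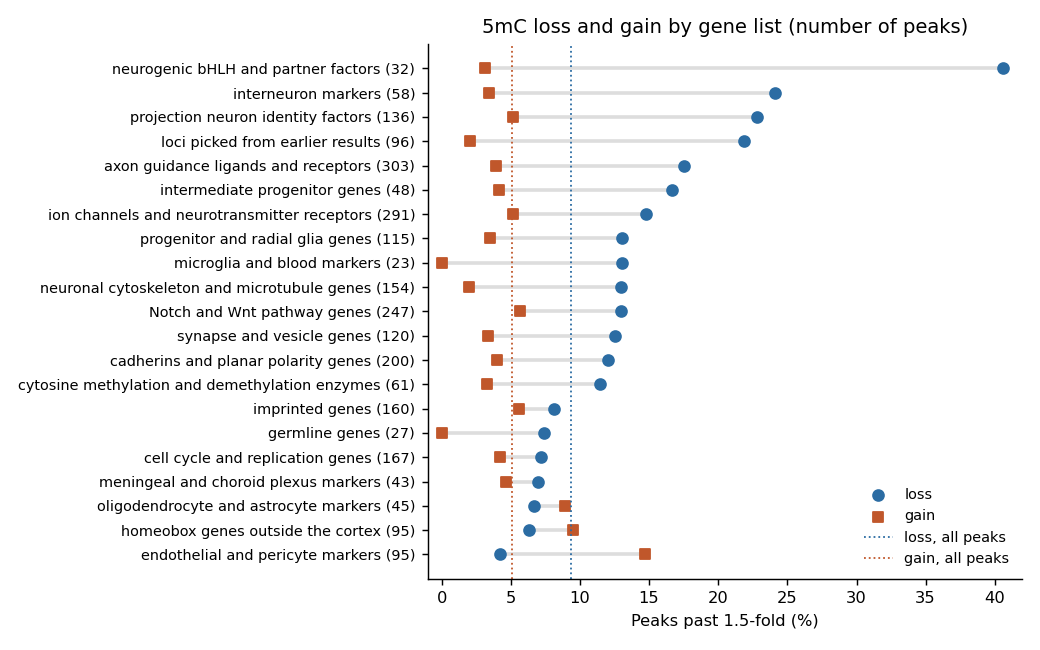
Percentage of peaks with 5mC loss (circles) and gain (squares) of at least 1.5-fold from DP to neurons in each gene list, with the number of peaks in brackets and dotted lines for all peaks (9.36% and 5.12%). Neurogenic bHLH and partner factors stand furthest to the right with 40.6% losses. Endothelial and pericyte markers, homeobox genes outside the cortex, and oligodendrocyte and astrocyte markers have more gains than losses. The list labelled homeobox genes also holds a few other transcription factors, such as Tbx15.

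Losses of at least 1.5-fold were somewhat more frequent inside genes than upstream. Both inside genes and downstream of starts they were more frequent far from the start. Of 22151 peaks inside a gene 9.58% were losses and 4.84% gains, of 21761 upstream 8.94% and 5.45%, and of 10842 downstream 9.89% and 5.10%. The level-matched shares of loss were 9.23%, 9.49% and 9.40%. At 2-fold, losses numbered 720 of the 22151 peaks inside genes and 704 of the 21761 upstream, so the difference between these was not seen there. The 257 peaks that overlap a start had 6.23% losses and 3.11% gains. In the 1 kb downstream of a start, losses and gains were about even (5.60% and 6.02% of 964 peaks), whereas over 100 kb downstream they were 12.3% and 5.48% of 3632. These distances downstream of a start include peaks inside genes. Within genes the loss share was 5.76% in the opening 1 kb, 8.94% at 1 to 5 kb, 8.34% at 5 to 20 kb, 9.88% at 20 to 50 kb, 12.6% at 50 to 100 kb, 13.2% at 100 to 200 kb and 13.7% over 200 kb. All peaks at the same PP levels as these groups had 9.10%, 9.15%, 9.10%, 9.21%, 9.59%, 9.51% and 10% losses. Upstream of genes the share was 10.1% within 1 kb. Beyond that it rose from 7.44% at 1 to 5 kb to 8.24% at 5 to 20 kb and 9.32% at 20 to 50 kb. It was 10.4% at 50 to 100 kb and 9.84% farther away. The level-matched shares of these upstream groups lay between 9.33% and 9.83%.

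The X chromosome stood apart. Its 799 peaks had 2.63% losses and 9.39% gains, while the autosomes ranged from 8.20% (chromosome 17) to 10.9% (chromosome 2) losses and from 4.45% to 6.21% gains. Its median change was 0.11, and autosomal medians were between -0.02 and 0.02. On the X, levels did not rise as such: the median went from 4.91 in PP to 4.88 in both DP and neurons, whereas the autosomal median went from 5.06 in DP to 4.87 in neurons. Within 1 kb of a start, 17 of 147 X peaks were gains and 1 was a loss (11.6% and 0.68%), against 5.13% and 8.12% of 1502 autosomal peaks, with level-matched losses of 10.5% and 8.92%. From PP to DP the X had 4.51% losses and 4.01% gains. In the earlier expression study the value of Xist, the RNA that coats the inactive X, was 74472 in DP and 51258 in neurons, and the sex of the embryos is not given in the labels, so its part in these shares was not tested.

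**Figure D4:**
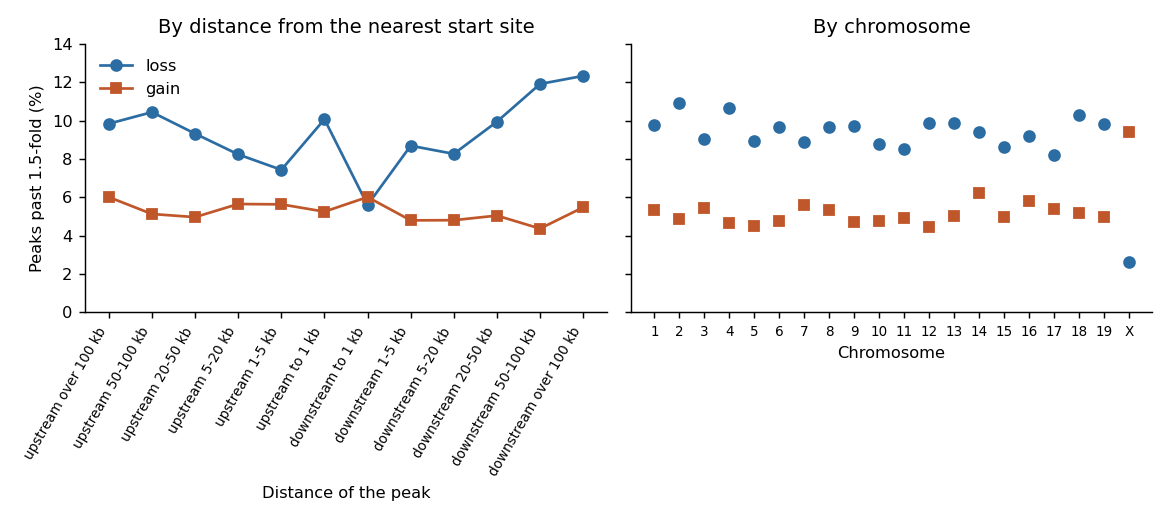
Percentage of peaks with 5mC loss (circles) or gain (squares) of at least 1.5-fold from DP to neurons, left by distance from the start site of the nearest gene and right by chromosome. Loss falls to 5.60% in the 1 kb downstream of starts and rises to 12.3% beyond 100 kb, and the X chromosome is alone in having more gains (9.39%) than losses (2.63%).

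Loss was more frequent next to genes with higher expression in neurons. Of 10609 genes with a peak and an expression value of at least 50 in DP or neurons, 1843 (17.4%) were at least 2-fold higher in neurons and 1643 (15.5%) at least 2-fold lower. Peaks next to the higher genes had 12.5% losses and 4.27% gains, those next to the lower genes 8.73% and 5.50%, and those in between 8.69% and 4.99%. The level-matched shares of loss were 9.43%, 9.45% and 9.25%. The medians differed by little, -0.04 for higher and 0.01 for lower genes. Among genes higher in neurons the share rose with the size of the expression change, from 8.90% for genes up to 1.5-fold higher to 13.5% for genes more than 8-fold higher. Among lower genes it was not ordered, at 9.01% for 2- to 4-fold lower, 10.1% for 4- to 8-fold lower and 7.54% beyond 8-fold. The difference between higher and lower genes was seen at both levels of methylation: with PP levels at or above the median, 7.59% of peaks next to higher genes were losses against 4.65% next to lower genes, and below the median 17.4% against 12.7%. Inside genes the shares were 13.7% and 7.94%, and within 5 kb of the start 11.9% and 7.22%.

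Genes with several losses were more often among those that rose. Of the genes with an expression value of at least 50, 24.5% of 2675 with a loss peak were at least 2-fold higher in neurons, 31.5% of 750 with 2 or more, 39.3% of 280 with 3 or more, and 29 of 58 with 5 or more. Genes with many peaks have more chances of a loss, and the higher genes had 4.82 peaks each on average against 4.22 for the lower ones. Of the genes with gains, 18.2% of 1763 with 1 or more, 22.6% of 234 with 2 or more and 17.2% of 29 with 3 or more were at least 2-fold higher. Across the 10609 genes Spearman's rho between the expression change and the median 5mC change was -0.06, and -0.13 over the 2901 with at least 5 peaks, so that most of the variation in 5mC change was not ordered by expression. These are correlations across genes, which are not independent replicates, between 5mC of these samples and expression of an earlier study.

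The level of expression in neurons separated the peaks further. The loss share lay between 8.52% and 9.13% for genes with values under 5000 in neurons, reached 11.6% from 5000 to 20000, and was 18.9% (227 of 1204 peaks next to 262 genes) from 20000, where gains were 3.07%. Among the last, genes at least 2-fold higher than in DP had 20.6% losses, and genes that were not had 17.2%. Genes that read at least 20000 in DP already had 15.7%. At the same PP levels all peaks had 9.10%.

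**Figure D5:**
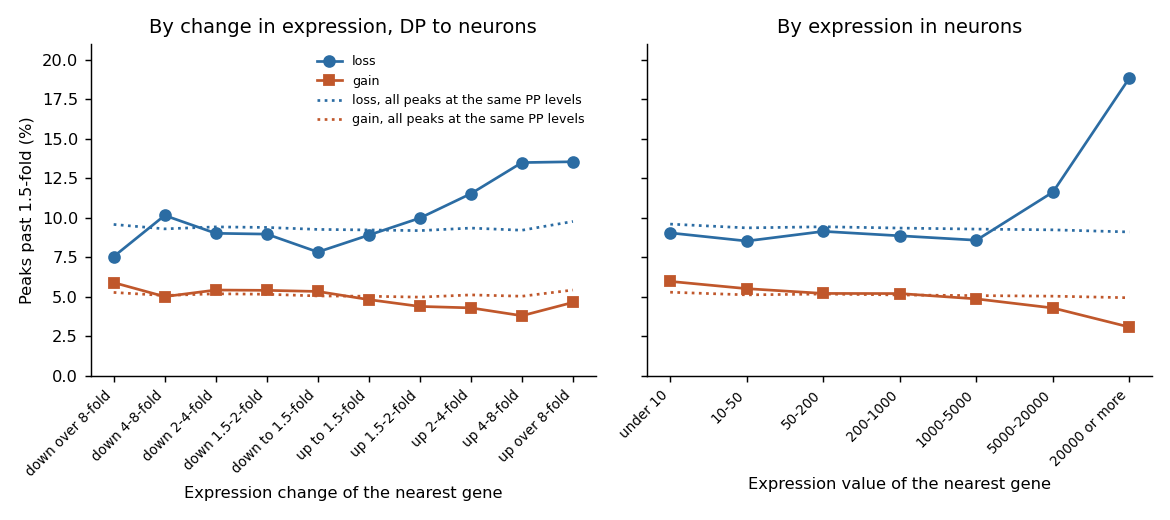
Percentage of peaks with 5mC loss (circles) or gain (squares) of at least 1.5-fold from DP to neurons, left by the expression change of the nearest gene (value of at least 50 in DP or neurons) and right by its expression value in neurons. Dotted lines give the shares of all peaks with the same PP levels; loss rises above its line to 13.5% next to genes up over 8-fold and to 18.9% next to genes that read 20000 or more.

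Loss coincided with the presence of 5hmC. Of the 55085 peaks, 6719 overlapped a 5hmC peak by at least 1 bp. Among these 20.8% were losses and 3.77% gains, against 7.77% and 5.31% of the 48366 without a 5hmC peak. All peaks at the same PP levels had 8.73% and 9.45% losses. The overlap grew with the fall: 8.97% of gain peaks held a 5hmC peak, 10.8% of other peaks, 27.1% of loss peaks and 49.7% of the 332 peaks that lost at least 4-fold. With a 5hmC peak, 24.7% of peaks next to genes higher in neurons were losses and 18.8% next to lower genes. Without it, the shares were 10.6% and 7.26%.

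Where both marks were measured, 5hmC was higher in neurons at most loss peaks. Of all 47478 5hmC peaks, 16.5% gained and 7.07% lost at least 1.5-fold from DP to neurons. Over all 6727 pairs of overlapping 5mC and 5hmC peaks, 34.0% gained and 3.45% lost 5hmC. Among the 2991 pairs whose 5mC changed by at most 0.25, these shares were 25.5% and 3.81%. At 1399 overlapping pairs with 5mC loss, the median 5hmC level went up from 3.95 in PP to 4.54 in DP and 5.25 in neurons, 60.3% gained 5hmC and 3.15% lost it. The relation was not steady in the size of the fall: the median centred 5hmC change was 0.81 for losses of 1.5- to 2-fold, 0.84 for 2- to 4-fold, and 0.38 past 4-fold, where 15.8% of 165 pairs lost 5hmC. At gain peaks it was 0.02. The Neurod2 peak was among those that lost both marks, with 5hmC levels of 5.08 in DP and 3.28 in neurons. At Nrxn2, 2 of the 3 loss peaks overlapped a 5hmC peak, where 5hmC went from 4.31 to 5.68 and from 4.86 to 6.54. At Bcl11b 1 of the 8 loss peaks did, and at Cntn2 none of 6.

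Neighbouring peaks moved together only weakly. Between adjacent peaks 250 bp to 1 kb apart (3692 pairs), Spearman's rho of their changes was 0.08. It was -0.11 over the 223 pairs closer than 250 bp, 0.03 at 1 to 5 kb, 0.04 at both 5 to 20 kb and 20 to 100 kb, and 0.01 beyond. These are correlations across peaks of the same libraries. After a loss peak the next peak was also a loss in 15.3% of pairs 250 bp to 1 kb apart, against 7.25% after any other peak, and in 13.2% against 9.33% at 5 to 20 kb. At 13 places 4 or more consecutive peaks were all losses. The longest runs, of 5 peaks, were those of Tiam2 and Bcl11b (chr12:107956977-107995674). At Tcf4 4 consecutive peaks over 59.4 kb were losses, at Hivep3 and Edn2 4 over 36.2 kb, and at Tapt1 and Ldb2 4 over 144 kb.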

How the data were processed

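Per the study's methods and the submitters' processing notes, sheared DNA (about 250 bp, 300 ng of each cell type) was barcoded, mixed and immunoprecipitated together. Single reads of 75 bp were aligned with BWA 0.7.8-r455 to mm10, peaks were called with SICER 1.1, repeats were removed, and DiffBind gave levels. The authors deposited log2 levels per peak and cell type as means over replicates. The tables used here hold neither replicate levels nor read totals, so values are given without depth or error. The deposited expression score is the authors' mean normalised value from an earlier RNA-seq study, and the distance and position of each peak were assigned by the authors. Their own fold changes and p-values, also in the tables, were not used. 8 rows repeat a peak position and were kept.

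Changes, classes and medians were computed in Python 3.11.15 with pandas 2.3.3 and scipy 1.17.1. No test was run, since each cell type has 1 value per peak. Expression changes used a pseudocount of 1 and genes with a value of at least 50. The steps were run on simulated data with 200 changed peaks, of which 200 were recovered, as a check of the code. In the deposited data the SD of the change was 0.47 over all peaks and 0.90 in the lowest group of the mean level. The reliability of calls at that spread was not tested. Named peaks are the 10 lowest and 10 highest changes where the higher level is at least 5. Named genes are the 10 lowest and 5 highest medians over at least 5 peaks, genes with the most losses (ties kept, so those with 8 or more), and, per list, the 2 lowest and 1 highest member with at least 2 peaks, plus the members of the bHLH, cytosine enzyme and picked-loci lists as needed. Others were named after their values were seen: genes that a count turns on, and the promoter peaks. The members and lists were chosen with earlier results of these data known. No genome was used here, so sequences come from RefSeq promoter windows (GRCm38.p6), and the largest changes elsewhere are given without sequence. Coordinates are as in the deposited table. Some items that these rules name are not reported here.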

Additional observations from a re-analysis of the deposited data

How the results depend on the processing

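Across 84 alternatives for 9 values, 66 stayed within their limits (1.5 times a count, or the 95% binomial or order-statistic interval over peaks). Without centring there were 8538 losses and 1246 gains, the median change near genes higher in neurons was -0.22, and the median 5hmC change at loss peaks was 0.71. The median near genes lower in neurons turned from 0.01 to -0.16 without centring and to -0.0350 with centring on the highest level group, which gave -0.0884 near higher genes. With a mean level of at least 4 there were 3435 losses. At 2-fold, losses numbered 1818 and gains 388, 39.6% of losses lay inside genes, against 41.1%, and the median 5hmC change at gain peaks was 0.13. Counting changes of at least 25% gave 11060 losses and 9154 gains. A window of 5 kb held 13.8% of losses, and one of 1 kb 2.39%. Inside genes only, the median near higher genes was -0.0701. An overlap of 50% of both peaks gave 0.85 for 5hmC at loss peaks. Grouping by PP level, chosen after seeing the data, gave 19.3% losses in the lowest group in place of 35.5%. The same holds for leaving out 7SK and U6, peaks at the lowest neuron level, and 4-fold expression classes, which stayed within limits. Of 104 alternatives listed at the start 27, on CpG and E-box content of all peaks, were not run, as no genome was used. No paired analysis was possible because each cell type has 1 deposited level per peak. Replicate levels were not used here, so no error is given for single peaks, and changes spread most widely at low level.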

Other observations

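Lists of genes that mark other cell types or regions were also counted. Endothelial and pericyte markers had 14 gains and 4 losses in 95 peaks (14.7% and 4.21%), while all peaks at the same PP levels had 5.86% gains. The gains lay next to 7 of 14 members. Erg, an endothelial transcription factor, held 5 in 19 peaks, and the share without it was 11.8%. The median expression value of these members was 24.2 in DP and 10.45 in neurons, with 16 and 2.6 for Erg and 34.1 and 9.9 for Cdh5. Not every member was low: Slc2a1 read 2473 and 1297, and Pdgfrb 289 and 25.7. Developmental transcription factors outside the cortex, most of them homeobox genes, had 9 gains and 6 losses in 95 peaks (9.47% and 6.32%). All peaks at the same PP levels had 5.80% gains. Irx1 held 3 of the gains, and the gain share without it was 7.23%. Phox2a, a factor of noradrenergic neurons, had 2 gains in 3 peaks, and Tbx15, a T-box and not a homeobox gene, 2 in 4. Oligodendrocyte and astrocyte markers had 4 gains and 3 losses in 45 peaks (8.89% and 6.67%), while all peaks at the same PP levels had 5.73% gains.

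Imprinted genes had 13 losses and 9 gains in 160 peaks (8.13% and 5.63%), close to the shares of the whole table, with Igf2 at a median of -0.61 over 2 peaks and Airn at 0.37 over 4. Germline genes, many of which are held silent by promoter methylation, had 2 losses and no gain in 27 peaks. Microglia and blood markers had 3 losses and no gain in 23 peaks, and meningeal and choroid plexus markers 3 losses and 2 gains in 43.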
